A study of Mus musculus with 3 samples.

Results

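The lysosome is the acidic compartment in which cells break down proteins, sugars and lipids, and 33 genes for its enzymes, enzyme cofactors, membrane proteins, proton pump and transcription factors were examined out of 55536 genes in the tables. The set was fixed by name: 5 membrane proteins, 3 luminal cofactors, 6 glycosidases, 4 lipid hydrolases, 1 peptidase, 11 proton pump genes and 3 transcription factor genes, all 33 of which were found. RNA came from the cytosolic fraction of C57BL/6J mouse bone-marrow-derived macrophages, primary cells grown out of marrow. There was 1 group of 3 libraries, in which the cells had received lipid A, the part of bacterial lipopolysaccharide that Tlr4 recognises, at 100 ng/ml for 12 h. They then spent 12 h without it and received 100 ng/ml again for 60 min. The libraries were made from 1 µg of ribosome-depleted RNA each, and the labels name separate biological samples under a single donor entry, without sex or age and without saying whether the cultures came from different animals. Tests over libraries therefore measure the spread between these samples, which may be technical. Unstimulated cells and cells stimulated once were not analysed here, so every value is a level and not a response.

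Macrophages take up microbes, dying cells and lipoproteins, and they depend on lysosomes to digest them. The vacuolar proton pump acidifies the lumen: its membrane sector V0 carries protons, driven by the cytosolic sector V1, which splits ATP. Hydrolases work at this low pH, many of them with helper proteins that present lipids or protect the enzymes. The related transcription factors Tfeb, Tfe3 and Mitf bind a short palindrome in the promoters of many lysosomal genes, and nutrient signalling at the lysosomal surface controls whether they enter the nucleus.

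Expected counts on genes numbered 46546422 to 53364168 per library. A gene with no counts could have stood at up to 0.0562 to 0.0645 CPM, the limit of 3 counts, for counting error only. The signal recognition particle RNA 7SL took 58.4% to 63.7% of TPM, which scales reads to transcript length and to the library total. Nuclear protein-coding genes were left 34.5%, 29.0% and 27.5% in replicates 1, 2 and 3. Levels are therefore also given as coding TPM, rescaled so that nuclear protein-coding genes sum to a fixed total. Malat1, an RNA that stays in the nucleus, reached 452 TPM in replicate 3, beside 112 in replicate 1 and 90.6 in replicate 2. All 12 macrophage markers stood above 1 TPM, led by Lyz2 at 3525 ± 672 TPM (SD, n = 3), Cd68 at 637 ± 94.4 and Adgre1 at 633 ± 127, with Cebpa lowest at 13.6 ± 2.68. Over all 20685 genes tested, 44.5% stood above 1 TPM. Of 10 neutrophil markers, 3 stood above it (Csf3r at 30.4 TPM, S100a9 at 4.66, S100a8 at 3.14) and Ly6g and Retnlg were listed at 0. Of 9 lymphocyte markers 0 did, the highest being Lck, Nkg7 and Cd3e at 0.0833, 0.04 and 0.02 TPM, and Gzma was listed at 0. Of 7 stromal markers 0 passed by limma and 3 could not be placed: Col1a1 at 0, 2.53 and 1.28 TPM in replicates 1, 2 and 3, Col3a1 at 0, 2.03 and 0.77 and Col1a2 at 0.02, 1.86 and 0.7, with Pdgfra lowest at 0.0233. In bulk RNA, fewer cells of a type and less RNA per cell cannot be told apart.

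All 33 lysosomal genes stood above 1 TPM, against 44.5% of the 20685 genes tested (limma on log2(TPM + 1), Benjamini-Hochberg adjusted p under 0.05, an arbitrary level). Adjusted p-values ran from 8.2e-09 for Psap to 0.00019 for Atp6v0d2. Against 5 TPM, 32 passed, beside 26.5% of all genes tested, and against 50 TPM 16 passed, beside 3.66%. The exception at 5 TPM was Atp6v0d2. The median level of the 33 was 62.3 TPM, against 0.68 TPM over all genes tested and 8.64 TPM over 8764 nuclear coding genes above 1 TPM. Levels ran from 4.37 to 3464 TPM. Together the set took 2.42%, 2.53% and 2.65% of coding TPM in replicates 1, 2 and 3, and Psap alone made up 42.4%, 47.4% and 46.4% of the set. Without Psap, the other genes took 1.39%, 1.33% and 1.42% of coding TPM in the same order, so the remainder was close to even across libraries.

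**Figure D1:**
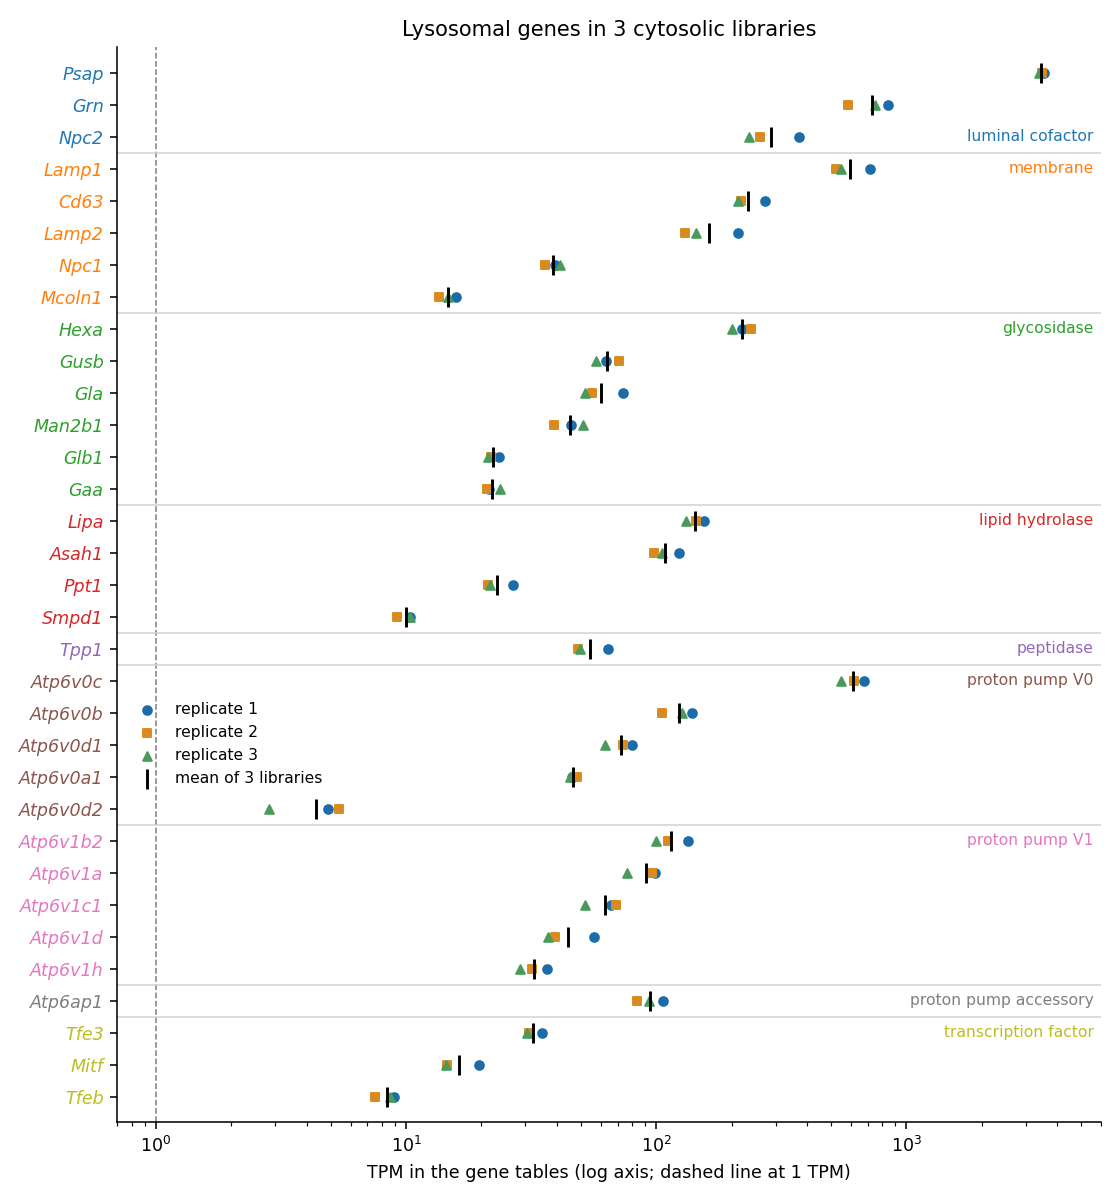
TPM of each of the 33 lysosomal genes in replicates 1, 2 and 3 (symbols, log axis), grouped by role, with a black tick for the mean of 3 libraries and a dashed line at 1 TPM. Psap stands alone at the top at 3464 TPM and Atp6v0d2 is lowest at 4.37 TPM, with replicate 3 left of the other libraries.

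When the genes were ordered by mean level, many neighbours lay close together. Of 32 neighbouring pairs, 16 kept their order within each of the 3 libraries, among them Npc2 over Cd63, Hexa over Lamp2 and Atp6v1a over Atp6v0d1. Of these, 8 also had ranges over libraries that did not overlap: Psap over Grn, Lamp1 over Npc2, Tpp1 over Atp6v0a1, Tfe3 over Ppt1, Gaa over Mitf, Mcoln1 over Smpd1, Smpd1 over Tfeb and Tfeb over Atp6v0d2. The largest of these steps was Psap over Grn, at 4.76 times. In the second set of tables, quantified directly from the reads, 19 of the 33 kept their rank and no gene moved by more than 2 places. Absolute values there were lower, at 0.369 (Npc1) to 0.54 (Asah1) times the gene tables.

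The luminal cofactors were the most abundant class. Psap (chr10:60277627-60302597, mm10, plus strand) encodes prosaposin, which is cut into the saposins that help hydrolases reach sphingolipids. Its level was 3538, 3480 and 3373 TPM in replicates 1, 2 and 3, with a mean of 3464 ± 84.0 (SD, n = 3). That spread, 2.43% of the mean, was the smallest of the 33 on the TPM scale, but on coding TPM the libraries stood at 10261, 12014 and 12281, with replicate 1 lowest. Grn (chr11:102430315-102437048) encodes progranulin, whose granulin fragments form in lysosomes, and it stood at 844, 586 and 751 TPM, lowest in replicate 2. Npc2 (chr12:84754562-84773152) encodes the soluble protein that carries cholesterol to the membrane transporter Npc1, and stood at 372, 259 and 236 TPM, highest in replicate 1.

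Among membrane proteins, Lamp1 was the most abundant and the calcium channel gene Mcoln1 the least. Lamp1 (chr8:13159161-13175338) encodes a heavily glycosylated protein that lines the lysosomal membrane. It stood at 718, 522 and 548 TPM, and its relative Lamp2 (chrX:38401357-38456454) at 211, 130 and 144 TPM, so both were highest in replicate 1. Lamp2 was lower than Lamp1 in 3 of 3 libraries, by −1.89 ± 0.12 log2(TPM + 1) units (SD, n = 3), or 0.294, 0.249 and 0.263 times the Lamp1 TPM. For such differences within libraries no p is given, since 3 libraries cannot go below an exact two-sided sign-flip p of 0.25. Cd63 (chr10:128900989-128912822), a tetraspanin of late endosomes and lysosomes, stood at 272, 217 and 211 TPM. After rescaling to coding genes its libraries were the closest of the 33, at 788, 750 and 769. Npc1, which moves cholesterol out of the lysosome, stood at 39.3, 35.9 and 41.2 TPM. It was lower than its partner Npc2 by −2.84 ± 0.36 log2(TPM + 1) units, and in 3 of 3 libraries. Mcoln1 (chr8:3500457-3515232) stood at 15.9, 13.5 and 14.7 TPM, highest in replicate 1, and at 46.0, 46.5 and 53.4 coding TPM, highest in replicate 3.

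Lamp2 transcripts end in alternative last coding exons, which give the protein its membrane span and cytosolic tail. Form A acts as the receptor of chaperone-mediated autophagy, and the tail end differs between forms. The last coding exons are shown from the GENCODE M21 transcripts without the stop codon, with the final 12 coding bases in capitals, because the libraries divided Lamp2 between them.
Form A (Lamp2-201, chrX:38405435-38405571, minus strand): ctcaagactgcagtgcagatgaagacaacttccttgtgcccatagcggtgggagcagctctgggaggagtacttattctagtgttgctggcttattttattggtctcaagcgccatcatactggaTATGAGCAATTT
Form B (Lamp2-202, chrX:38421715-38421851, minus strand): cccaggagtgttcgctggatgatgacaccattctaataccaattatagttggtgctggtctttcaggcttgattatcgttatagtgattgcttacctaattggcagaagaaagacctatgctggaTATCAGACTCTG
Form C (Lamp2-203, chrX:38402142-38402281, minus strand): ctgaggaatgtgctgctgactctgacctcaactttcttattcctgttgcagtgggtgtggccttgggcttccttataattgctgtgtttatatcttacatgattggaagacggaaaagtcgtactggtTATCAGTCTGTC
Forms A and B share 60.0% of aligned bases over these exons, forms A and C 59.5% and forms B and C 64.2%. Form A held 48.5%, 50.5% and 47.9% of Lamp2 transcript TPM in replicates 1, 2 and 3. Form B held 51.1%, 49.0% and 51.4%, and form C 0.303%, 0.408% and 0.396%. Forms A and B were thus near even in every library, while form C stayed under 1%. The order of A and B depended on the tables: in the second set form A held 53.1% ± 1.82 and form B 46.3% ± 1.84 (SD, n = 3).

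All 6 glycosidase genes stood above 1 TPM, and Hexa was well above the rest. Hexa (chr9:59539540-59565109) encodes the alpha subunit of beta-hexosaminidase, which trims gangliosides, and stood at 219, 238 and 201 TPM. Gusb (chr5:129989011-130003049), the beta-glucuronidase gene, stood at 62.9, 70.8 and 57.6 TPM, highest in replicate 2. The alpha-galactosidase gene Gla (chrX:134588149-134601125) stood at 73.8, 55.4 and 51.9 TPM, highest in replicate 1. Man2b1 (chr8:85083270-85098282), which encodes lysosomal alpha-mannosidase, stood at 45.6, 39.0 and 50.8 TPM, highest in replicate 3. Gusb, Gla and Man2b1 thus peaked in different libraries, and Hexa, like Gusb, in replicate 2. Glb1 (chr9:114401076-114474898), for beta-galactosidase, stood at 23.5, 21.9 and 21.3 TPM. Gaa (chr11:119267887-119285454), for the alpha-glucosidase that degrades glycogen, stood at 21.5, 21.1 and 23.6 TPM, so Glb1 and Gaa could not be separated.

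The lipid hydrolases spanned more than a factor of 10 in level. Lipa (chr19:34492318-34527474), the acid lipase that frees cholesterol and fatty acids from lipoproteins, stood at 155, 144 and 131 TPM. Asah1 (chr8:41340197-41374773), acid ceramidase, stood at 123, 97.5 and 105 TPM. Ppt1 (chr4:122836242-122859175), which removes palmitate from proteins, stood at 26.7, 21.2 and 21.6 TPM. The ranges of Lipa and Asah1 lay far above that of Ppt1. Smpd1 (chr7:105554360-105558389), acid sphingomyelinase, was lowest at 10.4, 9.22 and 10.4 TPM. The peptidase gene Tpp1 (chr7:105744811-105752235), which takes tripeptides off protein ends, stood at 64.1, 48.9 and 49.5 TPM, highest in replicate 1.

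In the proton pump, the ring subunit gene was highest and the alternative subunit forms were mostly low or listed at 0. In V0, Atp6v0c (chr17:24163866-24169702), which encodes the main subunit of the proton-carrying ring, was the highest pump gene at 678, 614 and 549 TPM. The related ring subunit gene Atp6v0b (chr4:117884326-117887333) stood at 139, 105 and 126 TPM. Atp6v0c was thus well above the other pump genes in every library. Subunit d links the ring to V1, and its common form Atp6v0d1 (chr8:105524465-105566047) stood at 80.1, 73.6 and 62.4 TPM. The alternative form Atp6v0d2 (chr4:19876841-19922605), known from osteoclasts, stood at 4.88, 5.41 and 2.82 TPM, from 850, 1155 and 545 expected counts. Atp6v0d2 was lower than Atp6v0d1 in 3 of 3 libraries by −3.79 ± 0.26 log2(TPM + 1) units (SD, n = 3), or 0.0609, 0.0735 and 0.0452 times its TPM. It also had the widest spread of the 33, with a highest to lowest ratio of 1.92 in TPM and 1.82 in coding TPM, and was lowest in replicate 3 on both scales and in the second tables. Replicate 3 is also the library with the most Malat1, whose part in this was not tested.

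Of 9 osteoclast markers, 2 stood above 1 TPM, against 44.5% of all genes tested. They were Nfatc1 at 10.9 ± 0.83 and Acp5 at 10.7 ± 1.18 TPM (SD, n = 3), and both are also expressed outside osteoclasts. Ctsk stood at 0.673 ± 0.206 TPM, Dcstamp at 0.02 ± 0.01, and Calcr was listed at 0. Their summed level was 24.3, 20.5 and 22.9 TPM in replicates 1, 2 and 3, against 6718, 5075 and 5150 TPM for the macrophage markers. The other osteoclast markers all averaged under 1 TPM in the libraries where Atp6v0d2 was measured, and the part of osteoclast-like cells in its level was not tested.

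**Figure D2:**
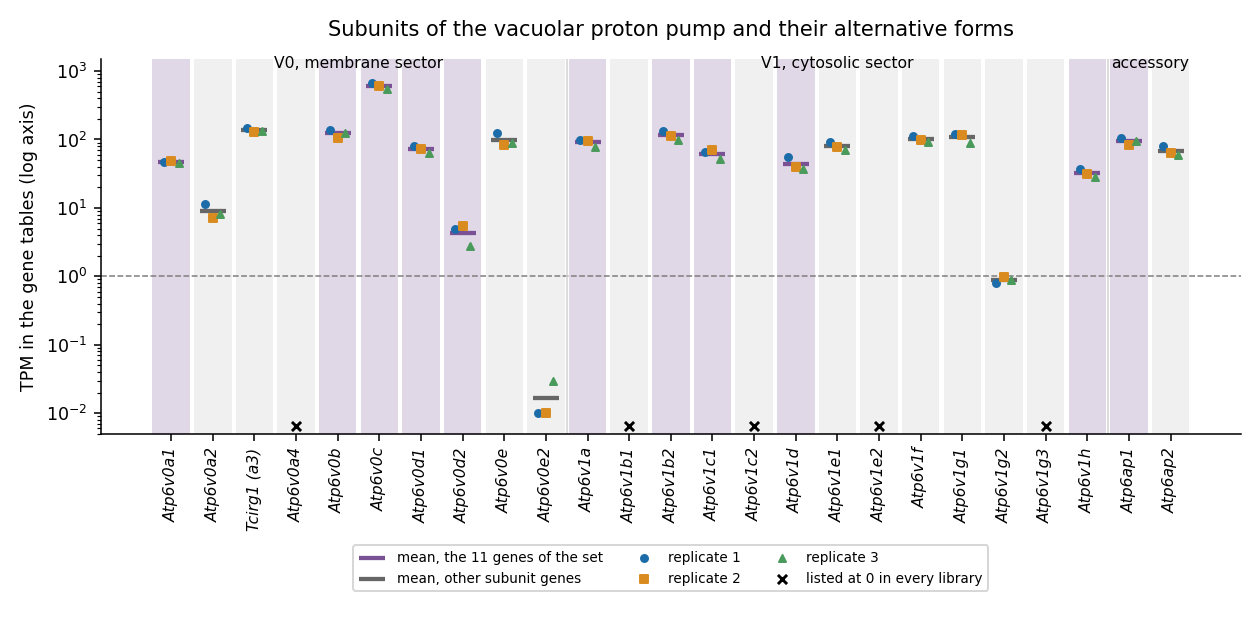
TPM of 25 proton pump genes (log axis) in replicates 1, 2 and 3, with a bar at the mean, the 11 genes of the set on purple columns and 14 other subunit genes on grey columns; crosses mark genes listed at 0 in every library and the dashed line stands at 1 TPM. Atp6v0c is highest at 614 TPM, and of the paired forms Atp6v0d2 stands at 4.37 TPM beside Atp6v0d1 at 72.1 TPM.

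For subunit a, which anchors the pump in its membrane, Atp6v0a1 (chr11:101009452-101063719) stood at 46.2, 48.2 and 45.3 TPM. Tcirg1, which encodes the a3 form found on lysosomes of macrophages and osteoclasts, stood at 149, 129 and 133 TPM. Atp6v0a1 was lower than Tcirg1 in 3 of 3 libraries by −1.54 ± 0.13 log2(TPM + 1) units (SD, n = 3; −1.34 ± 0.28 in the second tables). The a1 form of the set was therefore not the leading a subunit. Of the 14 other pump genes, 7 stood above 1 TPM, a share near the 44.5% of all 20685 genes tested. They were led by Tcirg1 at 137 ± 10.3, Atp6v1g1 at 107 ± 16.5 and Atp6v1f at 102 ± 10.6 TPM. Atp6v0a4, Atp6v1b1, Atp6v1c2, Atp6v1e2 and Atp6v1g3, alternative forms known from other tissues such as kidney or testis, were listed at 0 in every library. Atp6v0e2 stood below 1 TPM at 0.0167 ± 0.01, and Atp6v1g2 could not be placed, at 0.883 ± 0.10 TPM (SD, n = 3).

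The 5 V1 genes lay within a narrower band, from 32.4 to 115 TPM. Atp6v1a (chr16:44085402-44139705), the catalytic subunit gene, stood at 99.3, 96.4 and 76.5 TPM. Atp6v1b2 (chr8:69088646-69113711), which encodes its partner in the ATP-splitting head, stood at 133, 112 and 99.5 TPM. The subunits A and B occur in equal number in the pump, and Atp6v1a was lower than Atp6v1b2 by −0.34 ± 0.11 log2(TPM + 1) units (SD, n = 3), in 3 of 3 libraries. In the second tables that difference was −0.09 ± 0.22, smaller than its own spread. Atp6v1c1 (chr15:38661933-38692446), which takes part in joining V1 to V0, stood at 66.0, 69.1 and 51.8 TPM. Atp6v1d (chr12:78840725-78861638), part of the rotor, stood at 56.3, 39.5 and 37.0 TPM. Of that, its protein-coding transcript Atp6v1d-201 held 22.7, 21.4 and 19.9 TPM, below the band of the 5 genes. Most of the rest was the retained-intron transcript Atp6v1d-202, at 33.6, 18.1 and 16.7 TPM. Atp6v1h (chr1:5070018-5162529), a regulator of the assembled pump, stood at 36.7, 31.8 and 28.5 TPM. All 5 V1 genes were lowest in replicate 3 in TPM, as were 19 of the 33 genes and 55.7% of coding genes above 1 TPM. In coding TPM all 5 were again lowest in replicate 3, beside 9 of the 33 genes and 22.4% of those coding genes. In the second tables Atp6v1a was lowest in replicate 1, at 41.4 TPM, and the other V1 genes in replicate 3. The accessory gene Atp6ap1 (chrX:74297097-74304721), needed for pump assembly, stood at 107, 83.7 and 93.6 TPM.

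The transcription factor genes were the least abundant class, in the order Tfe3, Mitf and Tfeb. Tfe3 (chrX:7762560-7775202) stood at 35.0, 31.1 and 30.4 TPM. Mitf (chr6:97807052-98021349) stood at 19.6, 14.6 and 14.4 TPM, and Tfeb (chr17:47737030-47792419) at 8.98, 7.49 and 8.59 TPM. The ranges of the 3 genes did not overlap. Tfe3 exceeded Tfeb by 1.83 ± 0.11 and Mitf exceeded Tfeb by 0.87 ± 0.18 log2(TPM + 1) units (SD, n = 3), each in 3 of 3 libraries, while Mitf was lower than Tfe3 by −0.96 ± 0.13. The fourth gene of the family, Tfec, stood at 13.6, 18.6 and 9.03 TPM. Levels of messenger RNA say nothing of how much factor was in the nucleus.

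Each of the 3 genes has several annotated starts, and the transcript tables divided it between them. The sequences below run from 44 bases before to 12 bases after a RefSeq start (RefSeq promoter table, mm10, plus strand). The first 12 bases from that RefSeq start are in capitals. It is the one nearest each group of annotated transcript starts that held over 10% of transcript TPM. The 2 kinds of start can differ. For the downstream Tfeb group the RefSeq start is 47785744, and its 2 transcripts start at 47785720 and 47786155. Of these, Tfeb-212 held the whole share of the group, 47.9% of Tfeb transcript TPM. The stretch shown is therefore not the annotated start of Tfeb-212.
Mitf, upstream start (chr6:97807014-97807069): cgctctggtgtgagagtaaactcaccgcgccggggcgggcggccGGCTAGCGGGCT
Mitf, downstream start (chr6:97991739-97991794): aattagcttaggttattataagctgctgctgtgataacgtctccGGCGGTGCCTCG
Tfeb, upstream start (chr17:47736993-47737048): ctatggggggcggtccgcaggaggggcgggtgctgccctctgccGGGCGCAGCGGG
Tfeb, downstream start (chr17:47785700-47785755): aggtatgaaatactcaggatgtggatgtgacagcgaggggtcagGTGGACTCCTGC
Tfe3, upstream start (chrX:7762617-7762672): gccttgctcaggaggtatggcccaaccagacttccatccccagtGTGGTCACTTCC
Tfe3, downstream start (chrX:7763899-7763954): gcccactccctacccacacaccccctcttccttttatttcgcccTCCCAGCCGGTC
Transcripts from the upstream Mitf start held 85.9%, 82.6% and 78.7% of Mitf transcript TPM in replicates 1, 2 and 3, and those from the downstream start, which is the one known from melanocytes, held 13.9%, 17.1% and 20.6%. The upstream start led in every library. In the second tables it held 90.6% ± 1.38 (SD, n = 3) and the downstream start 8.08% ± 0.79. Most of the downstream share was Mitf-208, a transcript of 1074 bases. It held 17.1% of Mitf transcript TPM but 3.78% of its expected counts. Tfeb was near even, with 51.1% ± 0.79 from the upstream start and 47.9% ± 0.33 from the downstream start. In the second tables the shares were 69.3% ± 3.89 and 23.9% ± 3.12, so the balance of Tfeb starts depended on the quantification. Tfe3 came mostly from its downstream start, with 71.4% ± 2.6 against 28.3% ± 2.78 from the upstream start. In the second tables these shares were 64.1% ± 4.40 and 35.4% ± 4.31. Tfe3-214, a transcript of 408 bases from the downstream start, held 12.9% of Tfe3 transcript TPM but 1.02% of its expected counts.

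**Figure D3:**
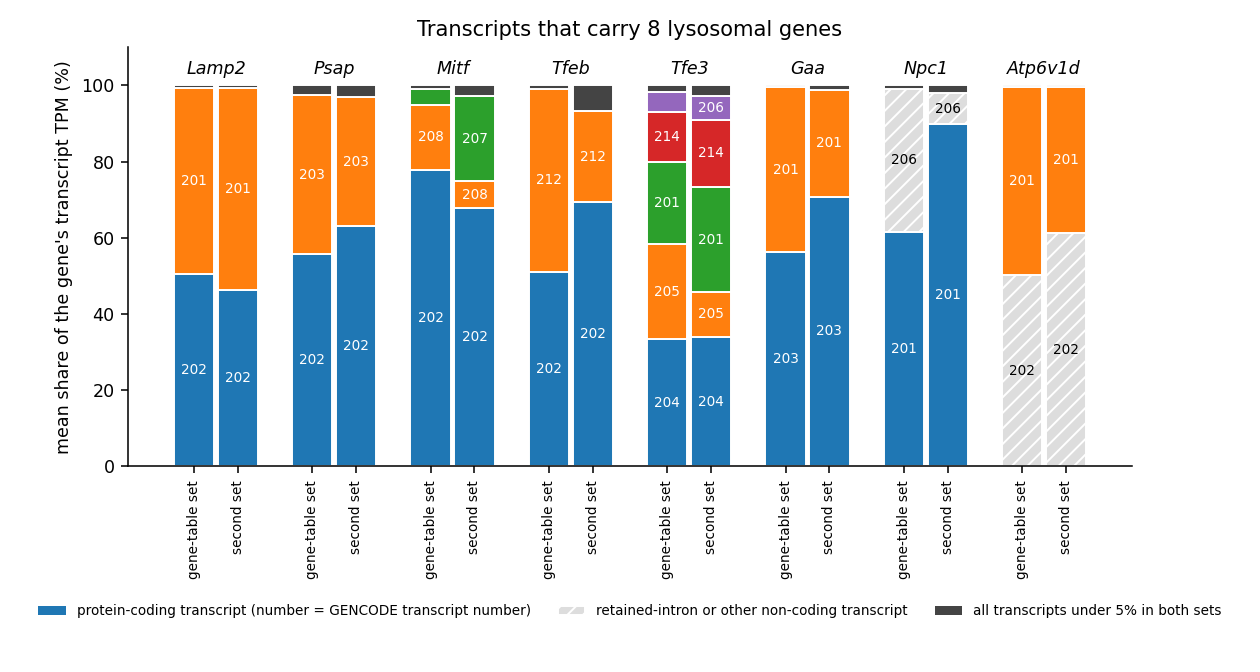
Mean share of transcript TPM (%, 3 libraries) held by each transcript of 8 genes, in the transcript tables that accompany the gene tables and in the second set; numbers in the bars are GENCODE transcript numbers, hatched parts are retained-intron or other non-coding transcripts, and dark parts sum transcripts under 5% in both sets. Lamp2 is split almost evenly between 202 and 201, and the hatched share of Npc1 is 37.3% in one set and 8.0% in the other.

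Many of the other genes were carried mainly by a single transcript. The leading transcript held at least 90% of transcript TPM in 20 of 33 genes, and in 16 in the second tables. It held at least 50% in 32 genes in either set, and the same transcript led in both sets of tables for 32 of 33 genes, Lamp2 being the exception. It was protein-coding in 32 of 33. The exception was Atp6v1d-202, a retained-intron transcript of 775 bases, which held 59.7%, 45.8% and 45.2% of Atp6v1d transcript TPM in replicates 1, 2 and 3 but 14.4% of its expected counts, beside 85.6% of counts in the full-length Atp6v1d-201. The TPM of Atp6v1d rests in part on this short transcript, which weighs more per read than a long one. Another retained-intron transcript, Npc1-206, held 37.3% ± 0.62 (SD, n = 3) of Npc1 transcript TPM and 8.0% ± 3.83 in the second tables. Asah1-201 held 96.7% ± 0.97 and 64.9% ± 7.41 in the second tables, where other Asah1 transcripts took more. Psap was split between Psap-202 and Psap-203, at 55.8% ± 2.5 and 41.6% ± 2.16, which start at different positions.

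The palindrome that Tfeb, Tfe3 and Mitf bind was searched in the promoter table, which covers 250 bases before to 50 after each RefSeq start, because these factors are known to act through it. The search used the core CACGTG, the 8-base form TCACGTGA, which contains the core, and the 10-base form GTCACGTGAC, which contains both; each reads the same on either strand. Windows were found for 27 of 33 genes, without Atp6v0d2, Npc1, Asah1, Atp6v1c1, Atp6v1b2 and Atp6v1h. The core was present in 8 of 27 genes (Lamp1, Atp6v0b, Atp6v1a, Atp6v0d1, Gla, Glb1, Gaa and Mcoln1), which is 29.6%, against 8.09% of 27025 genes, 7.15% of 32851 windows and 12.8% of 7034 coding genes above 1 TPM. The 8-base form was present in 4 genes, Atp6v0d1, Atp6v1a, Gla and Mcoln1, or 14.8%, against 1.12% of all genes, 0.974% of windows and 2.63% of coding genes above 1 TPM. The 10-base form was in 0 of the 27 genes, against 0.37% of all genes. These are counts of letters in a window and show no binding. Genes with the core had a median level of 66.2 TPM (n = 8) and those with a window and no core 63.8 TPM (n = 19), and their ranges overlapped.

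The stretches around the cores are shown for the genes with the 8-base form, and for Lamp1, chosen after its 4 cores were seen, with each core in capitals.
Atp6v0d1 (chr8:105566053-105566081, minus strand, −17 to 12 from the start): ggccctactgcggtCACGTGagacgcggt
Atp6v1a (chr16:44139371-44139404, minus strand, −145 to −112): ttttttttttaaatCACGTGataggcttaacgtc
Gla (chrX:134601180-134601246, minus strand, −241 to −175): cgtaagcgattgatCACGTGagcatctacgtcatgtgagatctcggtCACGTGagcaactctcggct
Mcoln1 (chr8:3500434-3500493, plus strand, −85 to −26): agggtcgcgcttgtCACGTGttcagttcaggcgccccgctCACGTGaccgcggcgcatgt
Lamp1 (chr8:13159086-13159165, plus strand, −75 to 5): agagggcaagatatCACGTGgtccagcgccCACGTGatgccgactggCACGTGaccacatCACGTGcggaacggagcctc
Positions are counted from the RefSeq start, with negative numbers upstream. GENCODE genes can begin farther upstream, at 44139705 for Atp6v1a (minus strand) and 3500457 for Mcoln1. By those limits the core of Atp6v1a and the 8-base form of Mcoln1 lie inside the gene. The core of Atp6v0d1 began at −3 and so ran across the RefSeq start, while the cores of Gla began at −227 and −194. GENCODE genes can also begin farther downstream, at 105566047 for Atp6v0d1 and 134601125 for Gla (both minus strand). By that limit the core of Atp6v0d1 lies wholly upstream of the gene. Of 14 cores in the 8 genes, 10 began within 75 bases upstream of the RefSeq start, in 5 genes. The genes shown spanned levels from 14.7 TPM for Mcoln1 to 596 TPM for Lamp1.

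**Figure D4:**
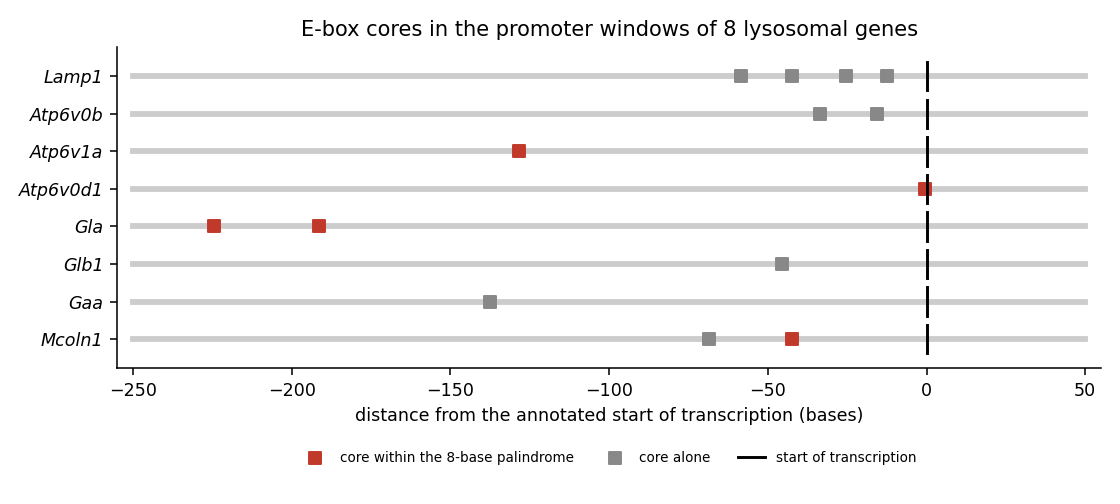
Positions of the core palindrome in the promoter windows of the 8 genes that hold it, by distance from the RefSeq start in bases (vertical bar at 0). Red squares lie within the 8-base form and grey squares do not. Lamp1 holds 4 cores in the last 61 bases before its start, and the 8-base form of Gla lies farthest upstream.

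Other genes of the pathway were measured from lists named by function. All 29 other hydrolases and cofactors stood above 1 TPM (44.5% of all genes tested), with a median of 27.2 TPM. Among them, the protective protein gene Ctsa stood at 280 ± 10.2 TPM and the acid phosphatase gene Acp2 at 152 ± 35.8 (SD, n = 3), with the hyaluronidase gene Hyal2 lowest at 3.48 ± 0.32. Of 20 other membrane proteins, 18 stood above 1 TPM, led by Cd68 at 637 TPM, Laptm5 at 316 ± 48.6 and the metal transporter gene Slc11a1 at 143 ± 14.3, while Lamp3 was listed at 0. Of 10 genes that sort enzymes to lysosomes, 9 passed, led by the mannose-6-phosphate receptor gene M6pr at 104 ± 15.4 TPM, Sumf1 at 30.6 ± 4.95 and Gga1 at 23.2 ± 2.86. The sorting receptor gene Sort1 could not be placed, at 1.09 ± 0.30 TPM. Of 19 genes listed for the control of Tfeb at the lysosome, 18 passed. That list also holds Tfec, which belongs to the Tfeb family itself. Highest were the scaffold genes Lamtor1 at 78.0 ± 5.21 and Lamtor5 at 56.8 ± 9.73 TPM and Fnip2 at 60.3 ± 8.54, a partner of folliculin. Rragb, a Rag GTPase gene, stood below 1 TPM at 0.173 ± 0.05. The medians of these last 3 lists were 17.4, 11.0 and 13.8 TPM in the order given, below the 62.3 TPM of the 33.

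Differences between libraries exceeded sampling noise for 31 of 33 genes, against 69.3% of 13075 genes tested (chi-square test with 2 degrees of freedom on rounded expected counts, adjusted p under 0.05). The exceptions were Tfe3 at adjusted p = 0.052 and Atp6v1d at adjusted p = 0.18 in that chi-square test. Deep counts make small differences detectable, and among 6288 coding genes within the same range of levels 5284 also exceeded noise. Single calls rested on the scaling or on 1 library: 25 genes exceeded noise without replicate 1, 30 without replicate 2 and 27 without replicate 3. The shares of all genes with 1 replicate left out are not given here, so these counts have no background beside them. The median biological coefficient of variation of the 33 genes was 0.133 (edgeR), against 0.12 for those coding genes. Their median level was only 13.6 TPM, against 62.3 TPM for the 33, so the sets were not matched in level. Against the trend that edgeR fitted over genes of a like count, only Lamp2, Man2b1, Mitf and Atp6v0d2 lay above it. The other genes of the set lay below that trend. Highest to lowest ratios in coding TPM ran from 1.05 for Cd63 to 1.82 for Atp6v0d2, with Man2b1 next at 1.4.

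Which library was highest depended on the scale. In TPM, 25 genes were highest in replicate 1, 5 in replicate 2 and 3 in replicate 3, beside 69.5%, 20.6% and 9.96% of 8764 coding genes above 1 TPM. In coding TPM the counts were 9, 10 and 14, in TMM-scaled CPM 15, 11 and 7, and the second tables gave 9, 17 and 7. The median gene of the set stood at 0.15 above its mean of 3 libraries in replicate 1 on the log2 TPM scale, and coding genes at 0.12. In coding TPM the medians of the set were −0.03, −0.05 and 0.02 in replicates 1, 2 and 3. In TMM-scaled CPM they were 0.04, −0.05 and −0.05 in the same order. The lead of replicate 1 was thus widest in TPM, where that library also had the most TPM on coding genes, smaller in TMM-scaled CPM, and not seen in coding TPM or the second tables.

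**Figure D5:**
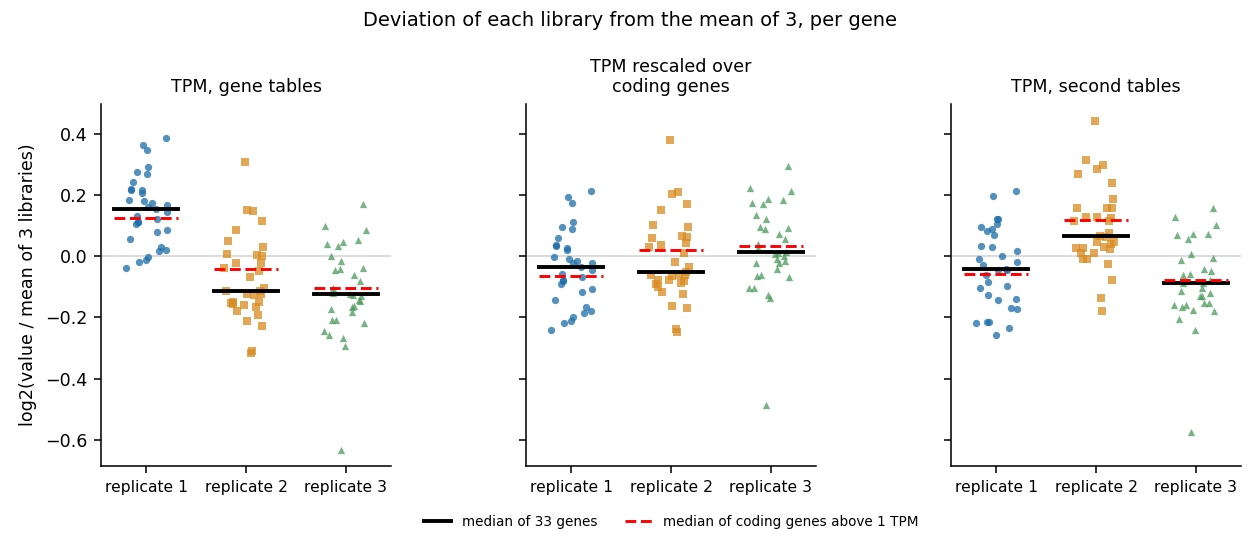
Deviation of each library from the mean of 3 libraries for each of the 33 genes (log2, 1 symbol per gene), in TPM, in TPM rescaled over coding genes and in the second tables; black lines are medians of the set and red dashed lines medians of coding genes above 1 TPM. The medians of the set lie close to those of coding genes, at 0.15 beside 0.12 for replicate 1 in TPM, and the lowest point in replicate 3 is Atp6v0d2.

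The deposited uncertainty of assigning reads to genes, a posterior SD of the count, was at most 0.0318% of the count, for Glb1. The pseudogene Atp6v0c-ps2 stood at 9.04, 3 and 1.74 TPM in replicates 1, 2 and 3 and Cd63-ps at 4.94, 2.82 and 2.08 TPM, far below their parent genes. Exons of 8 genes overlap another gene, in 7 of them on the opposite strand, and without a stated strand setting such reads cannot be told apart. The overlap matters most for Ppt1, at 23.1 TPM, which shares 129 exonic bases with Cap1 at 137 TPM, so the level of Ppt1 is uncertain to that extent. Npc1 (chr18:12189692-12236400) shares 511 exonic bases with Rmc1, which stood at 7.86 TPM.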

How the data were processed

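Ribosome-depleted total RNA of the cytosolic fraction was measured in 3 libraries of 1 group, grouped and numbered by their labels. The authors deposited expected counts and TPM for each gene and transcript, based on alignments to GENCODE M21 transcripts of mm10, per the file headers and the text that came with each library. A second set of transcript tables, made directly from the reads, holds estimated counts and TPM of its own (per the file headers). Which aligner and quantifier were run, in which version and with which strand setting, is not given in the sources used here. TPM is per kilobase of effective length, so abundant short RNA lowers the TPM of all other genes.

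The 33 genes, the gene lists and the pairs were chosen with earlier results of these data known. Entries that are not genes (0.378%, 0.0931% and 0.0772% of counts in replicates 1, 2 and 3) were left out. Levels were tested over every gene not at 0 TPM throughout by limma 3.58.1 (R 4.3.3), intercept-only on log2(TPM + 1), a pseudocount that compresses low values, with Benjamini-Hochberg adjustment. Expected counts were rounded for the chi-square test (sum of at least 30) and for the coefficient of variation from edgeR 4.0.16 with TMM scaling. These steps were tested on simulated data. Size factors of DESeq2 1.42.0 were an alternative. Tables were handled with Python 3.11.15, pandas 2.3.3, numpy 2.4.6 and biopython 1.88, and figures drawn with matplotlib 3.10.9. Named were all 33 genes, their preset partners, and the 3 highest and the lowest gene of each list. Some genes this rule names are not reported here. Alternatives were another pseudocount, level, filter, scaling or set of tables, and leaving out each replicate. With 1 group, no groups were compared.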

Additional observations from a re-analysis of the deposited data

How the results depend on the processing

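All 33 genes stayed above 1 TPM with a pseudocount of 0.1, with a mean count minimum of 10, in the second tables, after rescaling over coding genes and without any 1 replicate. At a level of 5 TPM 32 passed, and at 50 TPM 16. The number beyond sampling noise was 31 under TMM library sizes, DESeq2 size factors and a count minimum of 10, and 32 with a minimum of 100. It was 25 to 30 with 1 replicate left out: Cd63, Glb1, Gla, Tpp1, Mitf and Atp6v0a1 were lost without replicate 1, Ppt1 without replicate 2, and Mcoln1, Man2b1, Smpd1, Tfeb and Atp6v1h without replicate 3, where Tfe3 was gained. Glb1 was lost and Atp6v1d gained under both other scalings. The shares of all genes beyond sampling noise under these other settings are not given here. The genes highest in replicates 1, 2 and 3 numbered 9, 10 and 14 in coding TPM, 15, 11 and 7 in TMM-scaled CPM, and 9, 17 and 7 in the second tables, against 25, 5 and 3 in TPM. The difference Atp6v0d2 minus Atp6v0d1 was −4.06 and Tfe3 minus Tfeb 1.93 when the pseudocount was 0.1. In the second tables, Atp6v0d2 minus Atp6v0d1 was −3.52, Atp6v0a1 minus Tcirg1 −1.34 and Atp6v1a minus Atp6v1b2 −0.0924. The cause of these shifts was not tested. No mean difference changed sign, but in replicate 2 Atp6v1a stood above Atp6v1b2 in the second tables, at 59.7 and 54.9 TPM. The share of the leading transcript moved by more than its SD for 23 of 33 genes in the second tables. The median coefficient of variation was 0.13 with raw library totals and 0.135 with a count minimum of 10. No paired analysis was possible because there was only 1 group. With 3 libraries, spreads are rough, and with no other condition no value can be read as a response to lipid A.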

Other observations

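The genes in this paragraph were chosen after their values were seen, and no test was made of a shared pattern. Mcoln1 is the best known lysosomal mucolipin channel, but its relative Mcoln2 stood higher, at 34.7, 31.3 and 29.5 TPM in replicates 1, 2 and 3, against 15.9, 13.5 and 14.7 TPM for Mcoln1. The third relative, Mcoln3, stood at 5.01, 5.88 and 2.26 TPM and thus had the same order of libraries as Atp6v0d2 and Tfec, with replicate 2 highest and replicate 3 lowest. In coding TPM these were 14.5, 20.3 and 8.23 for Mcoln3, 14.2, 18.7 and 10.3 for Atp6v0d2, and 39.4, 64.3 and 32.9 for Tfec. The same order held for Mcoln3, Atp6v0d2 and Tfec in the second tables. There, 67.4% of coding genes above 1 TPM were highest in replicate 2 and 47.3% were lowest in replicate 3. In TPM, Hexa, Gusb, Atp6v0a1 and Atp6v1c1 also had this order, so it was not particular to these genes. Mcoln2 and Mcoln3 lie next to each other on chromosome 3 (146149833 to 146195513 and 146117450 to 146141806).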
